A study of Danio rerio with 26 samples.

Results

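The skin of the 3-year zebrafish in a rotenone study fell into 2 runs of fish numbers, 178 to 181 and 194 to 197, with 4 fish each. These 8 of the study's 26 fish were taken by their age, their rotenone concentration and the number in the sample title, and all genes were compared between the high run (194 to 197) and the low run (178 to 181). The labels do not say what separates the runs, and skin state and batch cannot be told apart. The 8 fish were male, carried the strain label AB JxTu Tg(flk:mCherry) and had received rotenone at 37.5 nM. Rotenone blocks complex I of the mitochondrial respiratory chain. The other fish were 1-year males of the strain label AB JxTu, 9 at 37.5 nM and 9 at 3.75 nM, and in each of these groups 4 fish had low and 5 had high numbers. All fish received rotenone, so no value below measures the drug against an untreated state. The transgene label goes with the age of 3 years, and strain and age cannot be told apart. In Tg(flk:mCherry) the promoter of flk, an older name of kdrl, drives a red fluorescent protein in blood vessel cells.

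Fish skin is a living epithelium of keratinocytes over a collagen-rich dermis in which bone-forming cells build the scales. Scattered mucous cells secrete the surface coat, and ionocytes exchange ions with the water. Ionocyte types are named by their transporters: the NCC type takes up sodium and chloride through slc12a10.2 on its outer face and passes chloride on through the channel clcn2c, with the sodium pump subunit atp1a1a.2 on the inner face. The forkhead factor foxi3b takes part in forming ionocytes. Skin cells are also a first barrier to viruses. Viral RNA is sensed by helicases of the RIG-I family, factors such as IRF7 switch on interferons, and interferon receptors act through factors such as stat2 on a large set of antiviral genes.

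Each fish gave 1 library, and total counts per library ranged from 25454674 to 35162246. Expression is given as CPM, counts divided by the library size after TMM scaling, which corrects libraries for differences in composition. The labelled tissue is skin, and its keratinocyte markers krt4, krt5, cdh1, epcam and tp63 summed to 18341 to 42923 CPM in the low run and 29632 to 56069.9 in the high run. Ovary, heart and gut markers were near 0, with sums of at most 3.35 CPM. Liver markers reached 613 CPM in 1 fish of the low run and stayed at or under 88.6 CPM in the high run. Skeletal muscle markers summed to 3207 to 26072 CPM in the low run and 2253 to 6608 in the high run. Fish 180 stood apart, with 17.9% of its counts in the 13 mitochondrial protein genes against 7.30% to 12.6% in the other 7 fish. Total count, this mitochondrial share and the share of the 50 highest genes did not differ beyond the spread between fish (exact permutation tests, two-sided, p = 0.914, 1.00 and 0.857, adjusted p = 1.00 for each, where 4 against 4 fish allow no p under 0.0286).

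The runs were set apart along the second principal component of log2 CPM, with 1 exception. The high run lay between -1.92 and 48.2 on it, and low-run fish 179, 180 and 181 lay between -66.4 and -33.0. Fish 178 of the low run lay at 23.0, within the high run. The largest component set fish 180 apart at 109. Spearman correlations of log2 CPM across genes had a median of 0.950 within the high run, 0.931 within the low run and 0.936 between runs. The fish most like 178 was 197 of the other run, at 0.965, and the fish most like 180 was 196, also of the other run, at 0.934.

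**Figure D1:**
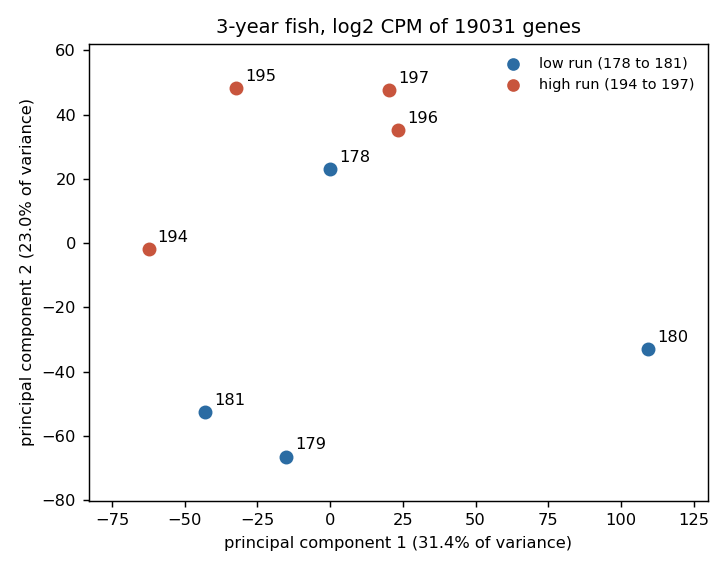
Principal components 1 and 2 of log2 CPM in the 8 fish aged 3 years, each point 1 fish, with blue for the low and red for the high number run. The high-run fish and fish 178 lie in the upper part of the plot, and fish 180 lies alone on the right at 109.

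Across 19031 genes tested in the 8 fish, edgeR's quasi-likelihood test with Benjamini-Hochberg adjustment called 0 genes higher (0%) and 0 lower (0%) at an adjusted p under 0.05. The smallest adjusted p was 0.0910. At an unadjusted p under 0.05, 1040 genes (5.46%) were higher and 1164 (6.12%) lower in the high run. In 643 genes (3.38%) every high-run fish was above every low-run fish, and in 665 (3.49%) every one was below. When the same 8 fish were compared in a fit over all 17 fish at 37.5 nM, which share 1 estimate of the spread, edgeR called 105 genes higher (0.526%) and 51 lower (0.256%). DESeq2 on the 8 fish called 296 higher (1.13%) and 178 lower (0.677%). Without fish 178, edgeR called 2 genes higher (0.0103%), trim35-31 (log2 fold change 2.94, adjusted p = 0.0158) and ssuh2.2 (log2 fold change 2.09, adjusted p = 0.0354), and 1 lower (0.00514%), pth1b (log2 fold change -6.30, adjusted p = 0.0394). Genes are described below as passing only in the fit over 17 fish, named each time, and an adjusted p is from that fit unless stated otherwise. A log2 difference is that of the high run minus the low run in the 8-fish fit, with its standard error (SE), and the median over all genes was -0.04. The gene lists used below were chosen with earlier results of these data known. Counts of list members beside the shares of all genes are therefore a description and no test.

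Interferon-response genes were higher in the high run. Of 58 members of a list of interferon and antigen presentation genes, 49 had a positive log2 difference, against 46.3% of all genes. At an unadjusted p under 0.05, 27 were higher and 3 lower (5.46% and 6.12% of all genes). Without overlap between runs, 23 lay higher and 1 lower (3.38% and 3.49% of all genes). The median over the list was 0.60. In the 17-fish fit edgeR called 15 members higher and 0 lower (0.526% and 0.256% of all genes). DESeq2 called 15 higher and 0 lower (1.13% and 0.677% of all genes). Averaged over the list, log2 CPM centred on the 8 fish was -0.16, -0.11, -0.63 and -0.48 in fish 178 to 181 and 0.31, 0.28, 0.56 and 0.25 in fish 194 to 197, so the runs did not overlap. Without fish 180, which stood apart in its library measures, the list had 26 members higher at an unadjusted p under 0.05 (5.77% of all genes were so, and 5.59% lower) and a median of 0.51.

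Among the sensors, DHX58, the RIG-I family helicase LGP2, was at 47.3, 47.9, 21.0 and 19.4 CPM in fish 178 to 181 and at 256, 197, 187 and 117 CPM in fish 194 to 197. All high-run fish were above all low-run fish, and the log2 difference was 2.48 ± 0.39 (SE) (edgeR, 17 fish, adjusted p = 0.00418). ZNFX1, a helicase known in mammals as a sensor of double-stranded RNA, gave 76.7, 59.8, 35.0 and 36.9 CPM in the low run and 259, 201, 249.7 and 184 CPM in the high run. It did not overlap either, with a log2 difference of 2.1 ± 0.29 (SE) (edgeR, 17 fish, adjusted p = 0.00369). The fish-specific kinase pkz, which binds Z-form nucleic acid, was at 15.2, 26.5, 9.96 and 13.9 CPM in the low and 152, 44.9, 48.9 and 36.5 CPM in the high run. Fish 194 was the highest by far for pkz, and the other 3 high-run fish also exceeded the low run (log2 difference 2.1 ± 0.52 (SE); edgeR, 17 fish, adjusted p = 0.0291).

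Among the signalling genes, IRF7 and stat2 were higher. IRF7, the factor that switches on interferon genes, was at 22.3, 30.9, 16 and 13.1 CPM in the low run and 255, 72.1, 123 and 66.6 CPM in the high run. The lowest high-run fish had more than the highest low-run fish, with a log2 difference of 2.65 ± 0.49 (SE) (edgeR, 17 fish, adjusted p = 0.00757). For stat2 the low run held 174, 110.1, 84.3 and 79.4 CPM and the high run 261, 232, 279.8 and 221 CPM. This difference of 1.15 ± 0.26 (SE) in log2 was smaller, with low-run fish 178 the nearest to the high run (edgeR, 17 fish, adjusted p = 0.0183).

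The 4 largest log2 differences of the list, those of mxb, ifit10, ifit8 and RSAD2, were of effector genes of the antiviral response. The Mx GTPase gene mxb was at 3.93, 5.09, 5.78 and 0.973 CPM in the low run and 272, 18.6, 81.5 and 24.0 CPM in the high run. Here the high-run fish differed widely from each other, and the log2 difference was 4.65 ± 1.00 (SE) (edgeR, 17 fish, adjusted p = 0.0274). Its relative mxe had 24.8, 24.4, 17.8 and 10.29 CPM in the low and 214, 125, 102 and 51.2 CPM in the high run, a log2 difference of 2.67 ± 0.46 (SE) (edgeR, 17 fish, adjusted p = 0.00666). In mxa, by contrast, low-run fish 179 exceeded high-run fish 197: the values were 27.9, 44.2, 11.6 and 17.6 CPM and 181, 51.3, 70.199 and 36.5 CPM, and the difference of 1.74 ± 0.58 (SE) did not pass (edgeR, 17 fish, adjusted p = 0.0801). Reads of close relatives such as the Mx genes may be split between them. RSAD2, the antiviral enzyme viperin, was at 9.15, 17, 4.84 and 4.76 CPM in the low and 138, 47.0, 91.0 and 48.6 CPM in the high run. CMPK2, a nucleotide kinase that is its neighbour on vertebrate chromosomes, was at 5.84, 5.82, 4.09 and 2.82 and 28.1, 16.3, 31.5 and 16.3 CPM. Neither overlapped between runs, with log2 differences of 3.18 ± 0.54 (SE) and 2.31 ± 0.33 (SE) (edgeR, 17 fish, adjusted p = 0.00587 and 0.00569). The ubiquitin-like modifier isg15 was at 43.4, 42.6, 22.4 and 14.2 CPM against 247, 148, 159.5 and 86.7 CPM, without overlap and with a log2 difference of 2.39 ± 0.44 (SE) (edgeR, 17 fish, adjusted p = 0.0169).

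The ifit genes, whose mammalian relatives bind viral RNA, were low in every low-run fish. For ifit8 the low run was at 4.08, 4.66, 1.42 and 1.77 CPM and the high run at 51.5, 18.1, 35.1 and 15.1 CPM, and for ifit10 the values were 1.47, 2.18, 0.711 and 1.29 CPM and 38.9, 4.71, 20.1 and 8.44 CPM. Fish 194 was the highest for both, and fish 195 or 197 the lowest of the high run. The log2 differences were 3.32 ± 0.54 (SE) and 3.66 ± 0.69 (SE) (edgeR, 17 fish, adjusted p = 0.00637 and 0.0139). A smaller difference of 1.98 ± 0.52 (SE) was seen for ifit16, at 5.62, 6.67, 1.60 and 3.16 CPM in the low and 32.1, 13.1, 9.95 and 12.3 CPM in the high run (edgeR, 17 fish, adjusted p = 0.0437). The ubiquitin ligase trim25, which activates RIG-I in mammals, was at 96.5, 97.0, 85.5 and 97.6 CPM in the low run and 224, 181, 152 and 117 CPM in the high run, without overlap and with a log2 difference of 0.84 ± 0.21 (SE) (edgeR, 17 fish, adjusted p = 0.0274).

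Antigen presentation genes differed in both directions. The gene of smallest unadjusted p among those with a non-placeholder symbol and an average log2 CPM of 2 or more was tapbpl, whose mammalian relative edits the peptides of MHC class I. It was at 20.9, 25.2, 21.2 and 18.7 CPM in the low run and 55.1, 61.4, 86.2 and 61.1 CPM in the high run. The lowest high-run fish was above the highest low-run fish by more than the range within the low run, with a log2 difference of 1.62 ± 0.18 (SE) (edgeR, 17 fish, adjusted p = 0.00418). The light chain b2m of MHC class I was at 1032, 747, 896 and 717 CPM and 2166, 1633, 1413 and 1177 CPM. The runs did not overlap, but the difference of 0.91 ± 0.23 (SE) did not pass (edgeR, 17 fish, adjusted p = 0.0694). The 3 list members lower at an unadjusted p under 0.05 were mhc1lia and mhc1zca, MHC class I genes of fish lineages L and Z, and irf1a, of the interferon regulatory factor family. Their log2 differences were -1.37 ± 0.52 (SE), -1.28 ± 0.54 (SE) and -1.08 ± 0.43 (SE), and none passed (edgeR, 17 fish, adjusted p = 0.146, 0.244 and 0.232). mhc1zca was at 9.44, 19.6, 56.7 and 20.8 CPM in the low run and 7.85, 6.41, 16.3 and 13.2 CPM in the high run, with fish 180 the highest and the other fish overlapping. Markers of immune cells are given beside these values: macrophage markers summed to 183 to 229 CPM in the low run and 171 to 284 in the high run, and lymphocyte markers to 13.8 to 53.6 CPM in the low run and 18.4 to 105 in the high run. Both sums overlapped between runs, but single lymphocyte markers differed. The sum was largely ighm, at 3.79 to 96.0 CPM over the 8 fish. The markers lck and cd79a were lower in every high-run fish (-0.27 ± 0.15 (SE) and -0.99 ± 0.37 (SE) in log2). In the lymphocyte list cd8a was higher without overlap (1.23 ± 0.47 (SE) in log2). None of lck, cd79a and cd8a passed (edgeR, 17 fish, adjusted p = 0.521, 0.250 and 0.144). The part of immune cell numbers in the interferon values was not tested.

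**Figure D2:**
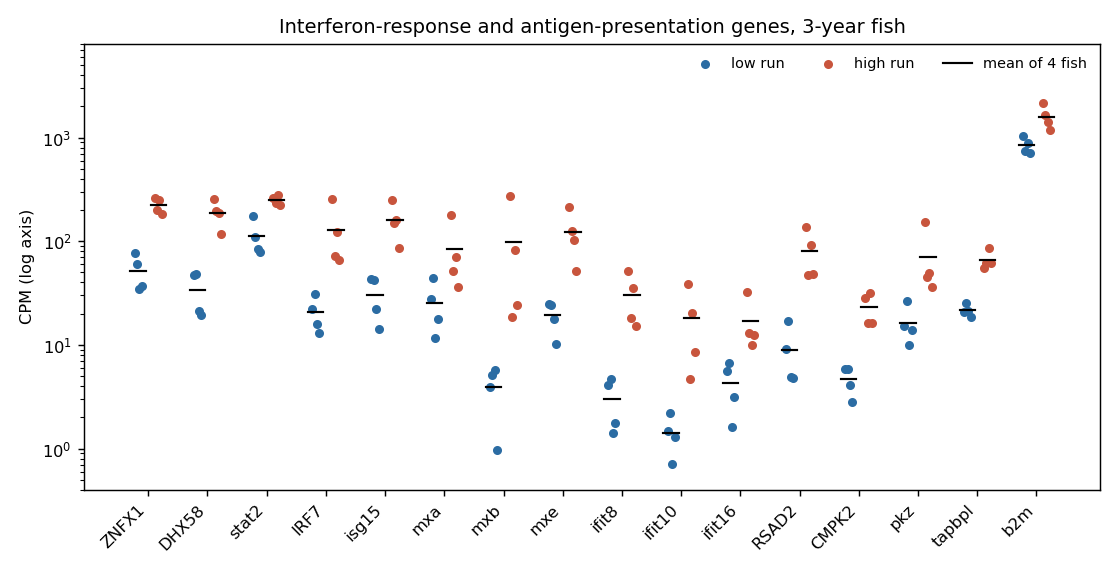
CPM on a log axis for 16 interferon-response and antigen-presentation genes in the 8 fish aged 3 years, each point 1 fish (blue low run, red high run) and each black line the mean of 4 fish. High-run points lie above all low-run points in every gene shown except mxa, and mxb spans 18.6 to 272 CPM within the high run.

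At 1 year the same list did not show this order. Its median run difference was -0.33 at 37.5 nM, with 9 of 57 members positive (all genes 51%), and 0.05 at 3.75 nM, with 29 of 57 positive (all genes 56.8%). At 37.5 nM edgeR called 1 member higher and 7 lower (3.72% and 4.22% of all genes), and at 3.75 nM 1 and 0 (2.88% and 5.36%). The negative differences at 37.5 nM also enter the difference between ages below. On 1 scale over all 26 fish, the list mean ranged over -0.61 to -0.06 in the 3-year low run and 0.26 to 0.57 in the 3-year high run. The 1-year fish at 37.5 nM spanned -0.13 to 0.61 in their low and -0.44 to 0.24 in their high run. The 3-year high run thus lay within the range of the 1-year low run at that concentration. The difference between ages of the run difference was tested over the 17 fish at 37.5 nM. edgeR called 0 genes higher (0%) and 0 lower (0%), with 1459 higher and 1815 lower at an unadjusted p under 0.05 and a smallest adjusted p of 0.0746. DESeq2 called 308 genes higher (1.14%) and 381 lower (1.41%). Of the 59 interferon list members in that fit, 39 had a larger run difference at 3 years and 0 a smaller one at an unadjusted p under 0.05, against 7.31% and 9.09% of all genes, and DESeq2 called 20 of them larger and 0 smaller. Without fish 178 edgeR called 124 genes larger (0.612%) and 78 smaller (0.385%), 11 and 0 of them in this list. For IRF7 the difference between ages was 2.74 ± 0.53 (SE) in log2 (edgeR, adjusted p = 0.0746), and for isg15 it was 2.57 ± 0.55 (SE) (edgeR, adjusted p = 0.0830).

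The genes slc12a10.2, clcn2c and atp1a1a.2 of NCC-type ionocytes and the shared ionocyte factor foxi3b were lower in the high run. These genes, and the grouping of ionocyte genes by type, were singled out after their values were seen. Of 5 tested genes set down for the NCC type, 3 passed as lower and 0 as higher in the 17-fish fit (0.256% and 0.526% of all genes). Since the grouping came after the values, this count is a description and no test. The other 2 carry the symbol SLC4A4, of bicarbonate transporters, overlapped between runs and had positive log2 differences, 0.67 ± 0.51 (SE) for ENSDARG00000044808 and 0.63 ± 0.53 (SE) for ENSDARG00000013730. The chloride and sodium cotransporter slc12a10.2 was at 4.37, 9.78, 2.89 and 5.11 CPM in the low run and 0.12, 0.205, 0.152 and 0.0312 CPM in the high run. It had the smallest unadjusted p of all 19031 genes, with a log2 difference of -5.40 ± 0.60 (SE) (edgeR, 17 fish, adjusted p = 0.00418; edgeR, 8 fish, adjusted p = 0.0910). The chloride channel clcn2c was at 2.13, 4.69, 1.64 and 3.09 CPM and 0.159, 0.0878, 0.0380 and 0 CPM, and fish 197 had no read. Its log2 difference was -5.30 ± 0.74 (SE) (edgeR, 17 fish, adjusted p = 0.0287). The sodium pump subunit atp1a1a.2 was at 6.58, 10.4, 2.98 and 3.82 CPM and 0.279, 0.849, 0.114 and 0.218 CPM, with a log2 difference of -3.99 ± 0.68 (SE) (edgeR, 17 fish, adjusted p = 0.0244). The factor foxi3b was at 1.84, 3.49, 1.69 and 2.12 CPM and 0.399, 0.703, 0.418 and 0.405 CPM, with a log2 difference of -2.23 ± 0.37 (SE) (edgeR, 17 fish, adjusted p = 0.0169). In all 4 genes every high-run fish lay below every low-run fish, and fish 179 was the highest. The values rest on few reads: summed over 4 fish, the low and high runs held 667 and 15 reads of slc12a10.2, 345 and 8 of clcn2c, 714 and 46 of atp1a1a.2 and 269 and 58 of foxi3b. A further ionocyte marker, foxi3a, was at very low levels and was not among the genes tested. Its runs overlapped, at 0.368, 0.293, 0.218 and 0.208 CPM in the low run and 0.200, 0.562, 0.227 and 0.0934 CPM in the high run. In whole skin, fewer cells of a type and less RNA per cell cannot be told apart.

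Of 17 further tested genes, of other ionocyte types or shared between types, 8 had negative and 9 positive log2 differences. Of these, 1 was higher and 1 lower at an unadjusted p under 0.05, close to the shares of all genes (5.46% and 6.12%). None passed in the 17-fish fit. The lower one was ca2, a carbonic anhydrase of the acid-secreting type, with overlapping runs (-0.96 ± 0.33 (SE) in log2; edgeR, 17 fish, adjusted p = 0.12). The calcium channel TRPV6 of the calcium-uptake type also overlapped (0.62 ± 0.45 (SE) in log2). The higher one was ca15a, a carbonic anhydrase of the acid-secreting type, at 0.220, 0.349, 0.133 and 0.382 CPM in the low run and 0.439, 0.790, 1.18 and 1.96 CPM in the high run. It did not overlap and was higher, by 1.98 ± 0.54 (SE) in log2, but did not pass (edgeR, 17 fish, adjusted p = 0.102). The mucin muc5.2 of mucous cells was at 387, 146, 267 and 333 CPM and 622, 779, 481 and 429 CPM, also higher without overlap and not passing (1.03 ± 0.32 (SE) in log2; edgeR, 17 fish, adjusted p = 0.0930). Of other mucous cell genes, SPDEF was lower without overlap and itln1 (ENSDARG00000007534) lower with overlap (-0.83 ± 0.32 (SE) and -2.08 ± 0.56 (SE) in log2). Both were at low levels, and neither passed (edgeR, 17 fish, adjusted p = 0.233 and 0.0931). The mucous cell markers muc5.1, AGR2 and foxa3 had positive log2 differences with overlapping runs (1.17 ± 0.62 (SE), 0.49 ± 0.49 (SE) and 0.26 ± 0.21 (SE)). Over the list of mucous cell and ionocyte genes, 2 of 28 members were higher and 6 lower at an unadjusted p under 0.05 (5.46% and 6.12% of all genes), with a median of -0.27.

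The run differences of slc12a10.2, clcn2c, atp1a1a.2 and foxi3b were also negative in the 1-year fish, which share no animal with the 3-year fish. At 3.75 nM slc12a10.2 ranged over 3.16 to 15 (median 9.38) CPM in the low run and 0.0725 to 0.953 (median 0.442) CPM in the high run, on a scale common to all 26 fish. At 37.5 nM the ranges were 0.706 to 3.31 (median 2.07) CPM and 0.190 to 1.23 (median 0.395) CPM. The log2 run differences of slc12a10.2 at 1 year were -4.04 at 3.75 nM and -2.01 at 37.5 nM (edgeR, 9 fish each, adjusted p = 0.0153 and 0.0638). Those of atp1a1a.2 were -5.04 and -1.96 (edgeR, 9 fish each, adjusted p = 0.00414 and 0.0708). For foxi3b they were -2.68 and -0.30 (edgeR, 9 fish each, adjusted p = 0.0182 and 0.623), and for clcn2c -2.20 and -2.42 (edgeR, 9 fish each, adjusted p = 0.251 and 0.101). The 1-year runs did not overlap in slc12a10.2, atp1a1a.2 and foxi3b at 3.75 nM and in atp1a1a.2 at 37.5 nM, and they overlapped in the other cases. The differences of slc12a10.2, atp1a1a.2 and foxi3b passed at 3.75 nM, and none of the 4 passed at 37.5 nM. The difference between ages at 37.5 nM was -3.37 ± 0.89 (SE) in log2 for slc12a10.2 (edgeR, adjusted p = 0.118).

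**Figure D3:**
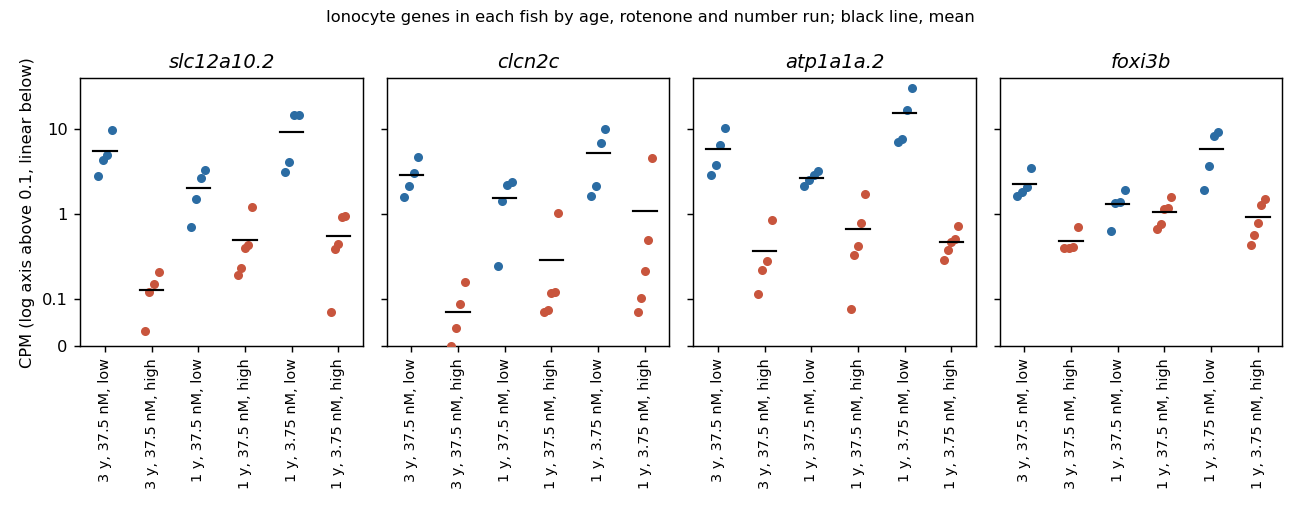
CPM of the 4 ionocyte genes in all 26 fish by age, rotenone concentration and number run, on an axis that is logarithmic above 0.1 and linear below; points are fish (blue low run, red high run) and lines are group means. In the 3-year fish slc12a10.2 lies between 2.81 and 9.79 CPM in the low run and at or under 0.206 CPM in the high run.

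The other genes of smallest unadjusted p were of several functions. Higher in the high run was hsh2d, an adaptor protein of blood cells in mammals, at 4.08, 3.2, 3.33 and 5.67 CPM in the low and 19.8, 16.8, 13.8 and 15.5 CPM in the high run (log2 difference 2.01 ± 0.23 (SE); edgeR, 17 fish, adjusted p = 0.000674). The tumour necrosis factor receptor relative relt was at 5.33, 3.61, 5.82 and 7.61 CPM and 15.8, 21.2, 34.3 and 20.5 CPM (log2 difference 2.04 ± 0.31 (SE); edgeR, 17 fish, adjusted p = 0.0174). KCNMA1, a calcium-gated potassium channel, was at 5.70, 6.93, 11.4 and 5.49 CPM and 17.7, 26.0, 28.3 and 27.0 CPM (log2 difference 1.75 ± 0.28 (SE); edgeR, 17 fish, adjusted p = 0.0291). In these 3 genes the lowest high-run fish lay well above the highest low-run fish. All 3 also had positive run differences at 1 year: 1.46, 1.58 and 0.62 at 37.5 nM and 1.2, 1.21 and 2.2 at 3.75 nM.

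Lower in the high run was soul5, of the haem-binding SOUL family, at 149, 121, 151 and 142 CPM in the low and 34, 60.8, 30.6 and 49.2 CPM in the high run (log2 difference -1.69 ± 0.24 (SE); edgeR, 17 fish, adjusted p = 0.00369). It was also lower at 1 year, with log2 differences of -0.75 and -0.93 at 37.5 and 3.75 nM (edgeR, adjusted p = 0.0307 and 0.0143). The chemokine receptor ccr12a was at 6.36, 7.80, 6.40 and 8.06 CPM against 2.43, 2.58, 2.81 and 3.58 CPM (log2 difference -1.33 ± 0.21 (SE); edgeR, 17 fish, adjusted p = 0.0139). The chemokine ccl34b.4 was at 17.5, 12.7, 15 and 13.8 CPM against 7.45, 8.81, 7.67 and 7.04 CPM. Its difference of -0.93 ± 0.16 (SE) did not pass when the spread was shared with the 1-year fish (edgeR, 17 fish, adjusted p = 0.379). GPT (ENSDARG00000019541), alanine aminotransferase, was at 20.3, 22.9, 23.6 and 25.1 CPM against 6.22, 12.1, 11 and 7.54 CPM (log2 difference -1.32 ± 0.23 (SE); edgeR, 17 fish, adjusted p = 0.0352). The prostaglandin synthase ptgs1 was at 12.8, 18.6, 18.2 and 18.7 CPM against 8.89, 7.73, 9.57 and 8.6 CPM (log2 difference -0.97 ± 0.17 (SE); edgeR, 17 fish, adjusted p = 0.0462). Each of these genes was lower in all 4 high-run fish than in any low-run fish. In the 8-fish fit the 16 genes taken by smallest unadjusted p had edgeR adjusted p-values of 0.0910 to 0.224, so that none was called there.

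Most genes of the endothelial list had negative log2 differences, and few passed. Of 31 members, 30 had a negative log2 difference, 12 were lower and 0 higher at an unadjusted p under 0.05 (6.12% and 5.46% of all genes), and the median was -0.60. The list mean was -0.08, 0.08, 0.78 and 0.30 in fish 178 to 181 and -0.18, -0.40, -0.10 and -0.40 in fish 194 to 197, without overlap. In the 17-fish fit edgeR called 1 member lower, lyve1b, and 0 higher (0.256% and 0.526% of all genes). DESeq2 called 3 lower (0.677% of all genes). Fish 180 was the highest, and without it 6 members were lower at an unadjusted p under 0.05 (5.59% of all genes) and the median was -0.33. Endothelium markers summed to 81.7 to 280.1 CPM in the low run and 74.0 to 127 in the high run. TIE1, a receptor tyrosine kinase of vessel cells, was at 22.4, 26.1, 39.2 and 30.3 CPM in the low run and 13.3, 14.2, 16.8 and 13.7 CPM in the high run. Its log2 difference of -1.02 ± 0.20 (SE) missed the threshold (edgeR, 17 fish, adjusted p = 0.0538). Outside the list, the receptor NOTCH1 (ENSDARG00000052094) was at 23.4, 24.7, 29.0 and 25.9 CPM against 12.6, 11.5, 15.5 and 14.3 CPM, and GATA2, a factor of blood and vessel cells, at 6.54, 6.52, 8.53 and 6.12 CPM against 3.07, 3.72, 3.49 and 3.30 CPM. Both passed, with log2 differences of -0.93 ± 0.15 (SE) and -1.03 ± 0.19 (SE) (edgeR, 17 fish, adjusted p = 0.0291 and 0.0291). Which skin cells the NOTCH1 and GATA2 reads came from was not tested. The lymph vessel gene lyve1b was at 3.89, 5.27, 4.0 and 5.11 CPM against 2.43, 2.46, 1.98 and 1.74 CPM (log2 difference -1.08 ± 0.23 (SE); edgeR, 17 fish, adjusted p = 0.0291). PROX1, the factor that sets lymphatic identity, was at 11.13, 13.6, 11.4 and 9.73 CPM against 6.58, 7.41, 7.6 and 9.35 CPM (log2 difference -0.57 ± 0.18 (SE); edgeR, 17 fish, adjusted p = 0.0837). The relative lyve1a of lyve1b (-0.77 ± 0.43 (SE) in log2) and the receptor gene FLT4 (-0.15 ± 0.15 (SE) in log2) overlapped between runs. Neither passed (edgeR, 17 fish, adjusted p = 0.249 and 0.658). The vascular growth factor receptor kdrl, after which the transgene is named, was at 41.1, 47.1, 152 and 52.6 CPM and 47.8, 37.7, 67.7 and 42.2 CPM. Only fish 180 was high for kdrl, and the runs otherwise overlapped (-0.59 ± 0.43 (SE) in log2). At 1 year the list medians had the opposite sign, 0.42 at 37.5 nM and 0.28 at 3.75 nM. At an unadjusted p under 0.05, 21 of 31 members had a lower run difference at 3 years than at 1 year (9.09% of all genes). DESeq2 called 7 of them (1.41% of all genes) and edgeR 0.

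Among keratinocyte genes, the desmosomal genes dsg2.1 and dsc2l passed as higher and the keratin krt17 as lower. Of 48 list members, 10 were higher and 4 lower at an unadjusted p under 0.05 (5.46% and 6.12% of all genes), with a median of 0.27; without fish 180, in which the list was lowest, 5 were higher (5.77% of all genes). The desmosomal cadherin dsg2.1 was at 799.6, 402, 465 and 662 CPM in the low run and 2138, 2831, 1154 and 1074 CPM in the high run, without overlap (log2 difference 1.63 ± 0.38 (SE); edgeR, 17 fish, adjusted p = 0.0291). Its desmosomal partner dsc2l was at 377, 155, 222 and 247 CPM and 1062, 1757, 492 and 368 CPM. Here fish 178 and fish 197 overlapped, and the log2 difference was 1.88 ± 0.51 (SE) (edgeR, 17 fish, adjusted p = 0.0450). The tight junction claudin cldnb was at 536, 448, 299.7 and 495 CPM against 1076, 1037, 889 and 736 CPM, without overlap but not passing (1.07 ± 0.23 (SE) in log2; edgeR, 17 fish, adjusted p = 0.0531). The keratin krt17 was at 603, 812, 326 and 776 CPM against 322, 262, 230.3 and 271 CPM, lower in every high-run fish (log2 difference -1.21 ± 0.29 (SE); edgeR, 17 fish, adjusted p = 0.0291). It was lower in the 1-year high runs too, with log2 differences of -0.98 at 37.5 nM and -2.46 at 3.75 nM (edgeR, adjusted p = 0.0156 and 0.00743). The basal keratin krt5 (0.24 ± 0.31 (SE)), the surface keratin krt4 (-0.06 ± 0.31 (SE)) and the adhesion protein cdh1 (0.40 ± 0.21 (SE)) overlapped between runs. The anchoring collagen col7a1, which ties epidermis to dermis, was at 58.7, 43.1, 51.0 and 65.0 CPM and 244, 95.2, 113 and 89.4 CPM, without overlap but not passing (1.32 ± 0.34 (SE) in log2; edgeR, 17 fish, adjusted p = 0.0742).

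No gene of the dermal fibroblast and scale bone cell lists passed in the 17-fish fit, and their members differed in both directions. COL1A1 was at 749, 1372, 3143 and 895 CPM in the low run and 5792, 11349, 4001 and 3138 CPM in the high run. Fish 180 of the low run was level with fish 197, and the other low-run fish lay under the high run. The log2 differences of COL1A1, col1a1a and COL1A2, whose products form type I collagen, were 1.98 ± 0.57 (SE), 1.70 ± 0.60 (SE) and 1.61 ± 0.55 (SE). None passed (edgeR, 17 fish, adjusted p = 0.258, 0.328 and 0.316). COL10A1 (ENSDARG00000101535), a collagen of zebrafish bone-forming cells, was at 167, 298, 842 and 150.2 CPM against 2481, 6292, 1567 and 1973 CPM. It did not overlap and its log2 difference was 3.08 ± 0.70 (SE), without passing (edgeR, 17 fish, adjusted p = 0.217). A further gene of that symbol, ENSDARG00000054753, overlapped between runs (0.79 ± 0.57 (SE) in log2). The fibrillar collagen col5a2b was at 31.6, 55.3, 45 and 54.3 CPM against 173, 297, 77.9 and 111 CPM (1.82 ± 0.41 (SE) in log2), and the proteoglycan gene BGN (ENSDARG00000017884) at 73.8, 42.8, 92.4 and 42.1 CPM against 151, 275, 70.8 and 123 CPM (1.31 ± 0.43 (SE) in log2). SP7, the osteoblast factor osterix, and ENTPD5, which zebrafish bone needs to mineralize, differed by 0.80 ± 0.31 (SE) and 1.42 ± 0.45 (SE) in log2 with overlapping runs. The collagenase mmp13a had lower levels, at 3.05, 8.30, 2.71 and 35.2 CPM against 2.03, 1.55, 1.90 and 1.90 CPM, and fish 181 was the highest (-2.74 ± 0.81 (SE) in log2; edgeR, 17 fish, adjusted p = 0.107).

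Negative differences without overlap were seen for LOXL1, an enzyme that cross-links elastic fibres, at 38.1, 53.6, 51.2 and 51.1 CPM in the low and 21.4, 26.7, 28.0 and 34.4 CPM in the high run, and PDGFRA, a growth factor receptor of fibroblasts, at 48.5, 63.9, 70.8 and 50.6 CPM and 36.1, 41.5, 35.9 and 39.6 CPM. Neither passed, with log2 differences of -0.81 ± 0.19 (SE) and -0.61 ± 0.16 (SE) (edgeR, 17 fish, adjusted p = 0.0696 and 0.169). Over the dermal fibroblast list, 6 of 54 members were higher and 4 lower at an unadjusted p under 0.05 (5.46% and 6.12% of all genes), and the median was -0.21. Without fish 180, whose list mean was the highest at 0.64, 11 were higher and 5 lower (5.77% and 5.59% of all genes), and the median was 0.08. At 1 year the list had positive medians at both concentrations, 1.03 at 37.5 nM and 0.58 at 3.75 nM. Type I collagen had the same sign at both ages: COL1A1 differed by 3.05 at 37.5 nM and 1.72 at 3.75 nM in log2 (edgeR, adjusted p = 0.0871 and 0.0943). The signs were opposite for LOXL1, at 0.74 and 0.10, and PDGFRA, at 0.69 and 0.48. For LOXL1 the difference between ages was -1.54 ± 0.28 (SE) in log2, which missed the threshold (edgeR, adjusted p = 0.0746).

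Genes of the cytosolic ribosome had small negative differences throughout the list. All 80 members had a negative log2 difference, with a median of -0.46. Of these, 67 were lower at an unadjusted p under 0.05 (6.12% of all genes). Without overlap between runs, 42 lay lower (3.49% of all genes). edgeR called 0 of the 80 in the 17-fish fit, and DESeq2 called 2 lower in the 8 fish (0.677% of all genes). The list took 9.75, 8.86, 8.89 and 10.1% of all counts in fish 178 to 181 and 7.93, 6.13, 6.94 and 7.55% in fish 194 to 197. Every high-run share was below every low-run share. RPLP0, of the ribosomal stalk, was at 2833, 2887, 4039 and 3007 CPM and 2267, 1857, 2158 and 2101 CPM, with fish 180 the highest (-0.61 ± 0.18 (SE) in log2). RPS2 of the small and RPL3 of the large subunit differed by -0.42 ± 0.17 (SE) and -0.49 ± 0.17 (SE). Without fish 180, 48 members were lower at an unadjusted p under 0.05 (5.59% of all genes) and the median was -0.36. At 1 year 1 of 80 members was positive at 37.5 nM and 0 of 80 at 3.75 nM, with medians of -0.29 and -0.20. No member was called there (edgeR, adjusted p under 0.05).

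Muscle genes were highest in low-run fish 179 and 180, and genes of the respiratory chain in fish 180. The skeletal muscle list mean was -0.94, 1.47, 2.26 and -0.10 in fish 178 to 181 and -0.84, -1.06, 0.22 and -1.01 in fish 194 to 197. Fish 179 and 180 were high, and fish 178 was as low as the high run. Its median log2 difference was -1.64 with all fish and -1.06 without fish 180. Members lower at an unadjusted p under 0.05 (6.12% of all genes with fish 180 and 5.59% without it) numbered 24 of 42 with and 10 without it. The actin gene actc1b was at 1374, 13752, 17762 and 2689.9 CPM and 2124, 1410.5, 4131 and 1236 CPM (-2.0 ± 0.80 (SE) in log2), and the creatine kinase ckma at 1825, 5561, 8711 and 2296 CPM and 1170.4, 818, 2501 and 1381 CPM (-1.65 ± 0.55 (SE) in log2). Complex I, the target of rotenone, had a list median of -0.57, which became 0.14 without fish 180. Its list mean was 1.51 in fish 180 and -0.42 to 0.32 in the other 7. Complexes II to V went from -0.58 to 0.06, and the mitochondrial genome list from -0.25 to 0.45. The plasma protein list was high in fish 181, at 2.78, and low in fish 180, at -1.82, beside the liver markers above. The part of muscle and liver markers in these values was not tested.

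Sterol synthesis genes, by the examples below, were high in fish 178 of the low run and low in fish 194 of the high run. HMGCS1, an early enzyme of the pathway, was at 871, 278, 162 and 295 CPM in the low run and 220.3, 3116, 2166 and 805 CPM in the high run. Fish 178 of the low run exceeded fish 194 and 197, so the runs overlapped (1.97 ± 0.81 (SE) in log2). HSD17B7 and MSMO1, later enzymes, differed by 2.08 ± 0.72 (SE) and 1.97 ± 0.86 (SE), with the same high fish 178 and low fish 194. The lipoprotein receptor ldlra did not overlap, at 72.2, 37.4, 22.4 and 60.9 CPM and 79.8, 314, 124 and 104 CPM (1.69 ± 0.51 (SE) in log2), but did not pass (edgeR, 17 fish, adjusted p = 0.0826). SCAP, the sterol sensor that escorts the SREBP factors, was at 93.0, 21.4, 36.2 and 26.6 CPM and 37.9, 238, 172 and 121 CPM (1.68 ± 0.62 (SE) in log2). Its 1-year run differences of 1.37 at 37.5 nM and 1.77 at 3.75 nM passed (edgeR, adjusted p = 0.0115 and 0.0278). Of 53 list members 34 were positive, 9 were higher at an unadjusted p under 0.05 (5.46% of all genes), and the medians were 0.60 at 3 years, 0.29 at 1 year and 37.5 nM, and 0.63 at 3.75 nM.

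Cell cycle genes leaned towards the high run, with 74 of 77 members positive (46.3% of all genes) and a median of 0.63, but the fish of each run spread widely. At an unadjusted p under 0.05, 7 members were higher and 0 lower (5.46% and 6.12% of all genes). The median lay between 0.24 and 0.99 when 1 fish was left out. The list mean was -0.84, 0.09, -1.09 and 0.50 in the low and 1.28, -0.09, 0.10 and 0.05 in the high run, so fish 181 exceeded 3 of the 4 high-run fish. RRM2 (ENSDARG00000078069), a subunit of the enzyme that makes DNA precursors, was at 3.93, 3.06, 0.800 and 4.48 CPM and 10.8, 13.2, 14.4 and 13.5 CPM. This gene passed, with a log2 difference of 2.08 ± 0.44 (SE) (edgeR, 17 fish, adjusted p = 0.0291). The proliferation markers mki67 (0.59 ± 0.48 (SE)) and PCNA (0.62 ± 0.44 (SE)) overlapped between runs, with fish 194 the highest for both.

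Immediate-early and wound genes had higher levels in the high run, without passing in the 17-fish fit. Of 50 inflammation and wound list members, 16 were higher and 1 lower at an unadjusted p under 0.05 (5.46% and 6.12% of all genes), with a median of 0.27. DESeq2 called 5 higher and 1 lower (1.13% and 0.677% of all genes). The list mean was -0.18, -0.33, -0.08 and -0.10 in the low run and 0.21, 0.24, 0.19 and 0.04 in the high run, without overlap. FOS, an early response factor, was at 52.9, 46.4, 109.5 and 58.4 CPM and 126, 280.5, 259 and 90.4 CPM, and fish 180 exceeded fish 197 (1.5 ± 0.43 (SE) in log2). Its partner JUNB (ENSDARG00000104773) was at 75.6, 59.96, 86.4 and 69.7 CPM and 181, 269, 268 and 84.0 CPM (1.46 ± 0.35 (SE) in log2), and a further gene of that symbol, ENSDARG00000074378, differed by 1.13 ± 0.45 (SE). The early response gene ier2a was at 37.8, 33.6, 46.9 and 32.3 CPM and 66.4, 121, 139.7 and 57.1 CPM, without overlap (1.35 ± 0.31 (SE) in log2), and the factor CEBPB at 92.2, 51.0, 83.0 and 85.9 CPM and 136, 169, 156 and 105 CPM (0.86 ± 0.23 (SE) in log2). BTG2, an antiproliferative p53 target, was at 113, 34.7, 108 and 56.7 CPM and 151, 278, 375 and 207 CPM (1.70 ± 0.43 (SE) in log2). In the 17-fish fit the adjusted p-values of edgeR were 0.248 for FOS, 0.228 for the first JUNB gene, 0.208 for ier2a, 0.226 for CEBPB and 0.126 for BTG2. At 1 year the log2 differences of FOS and ier2a were 0.13 and -0.06 at 37.5 nM and -0.46 and -0.08 at 3.75 nM.

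Hormone, stress and clock genes differed in part of their lists. At an unadjusted p under 0.05, 10 of 49 integrated stress members were higher and 0 lower (5.46% and 6.12% of all genes). Without fish 180 these were 9 and 5 (5.77% and 5.59% of all genes). Of 46 clock members 7 were higher and 1 lower. For 32 glucocorticoid targets the counts were 2 and 1, and for 42 heat shock members 0 and 8. In the 17-fish fit 1 clock member passed as higher and 1 heat shock member as lower (0.526% and 0.256% of all genes). FKBP5, a target of the glucocorticoid receptor, was at 930.1, 48.5, 362 and 393 CPM in the low run and 989, 1725, 955 and 967 CPM in the high run. Fish 178 came close to the high run and fish 179 was far below it (1.42 ± 0.69 (SE) in log2; edgeR, 17 fish, adjusted p = 0.312). CHAC1, a glutathione-degrading enzyme induced in the integrated stress response, was at 465, 162, 469 and 315 CPM and 746, 1497, 673 and 816 CPM, without overlap (1.4 ± 0.39 (SE) in log2; edgeR, 17 fish, adjusted p = 0.0989). Of the clock genes, PER2 did not overlap, at 76.4, 55.4, 92.7 and 65.1 CPM and 98.9, 111, 100.4 and 125 CPM (0.59 ± 0.19 (SE) in log2; edgeR, 17 fish, adjusted p = 0.0896). Both PER1 genes (0.55 ± 0.37 (SE) for ENSDARG00000056885 and 0.15 ± 0.25 (SE) for ENSDARG00000012499) and NR1D1 (0.05 ± 0.36 (SE)) overlapped. The heat shock gene hsp70l (-0.03 ± 0.43 (SE)), the wound protease MMP9 (-0.24 ± 0.44 (SE)), the neutrophil enzyme gene lyz (-0.54 ± 0.43 (SE)) and the haemoglobin gene hbaa1 (-0.79 ± 0.64 (SE)) overlapped as well. Other neutrophil genes differed: of 19 list members 2 were higher and 7 lower at an unadjusted p under 0.05 (5.46% and 6.12% of all genes). In the 17-fish fit 0 of them passed. CYP1A1, a target of the aryl hydrocarbon receptor, overlapped at 3 years, with 8.6, 18.4, 30.4 and 21.0 CPM and 7.10, 23.4, 15.3 and 37.3 CPM (0.09 ± 0.52 (SE) in log2). At 1 year and 37.5 nM it was higher in the high run by 3.05 in log2 (edgeR, adjusted p = 0.00518), and the difference between ages was -2.94 ± 0.61 (SE) (edgeR, adjusted p = 0.0786). A p that misses the threshold does not show that 2 runs were alike.

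Over the 30 gene lists, the list mean did not overlap between runs in 6. It was higher in the high run for the interferon and the inflammation lists and lower for the ribosome, endothelial, neutrophil and mucous cell and ionocyte lists. The muscle, plasma protein and erythrocyte lists had the most negative medians of all lists, -1.64, -1.54 and -0.96, but overlapped. The lists for macrophages (-0.05), lymphocytes (-0.09), antioxidant genes (-0.09), integrated stress (0.07), the clock (0.08) and p53 targets (0.14) had medians near 0. A median near 0 can hold members that differ, as counted above for integrated stress and the clock. Of 36 p53 targets 8 were higher and 1 lower at an unadjusted p under 0.05 (5.46% and 6.12% of all genes). The largest list means of single fish were in the low run, for muscle in fish 180 (2.26) and plasma proteins in fish 181 (2.78).

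**Figure D4:**
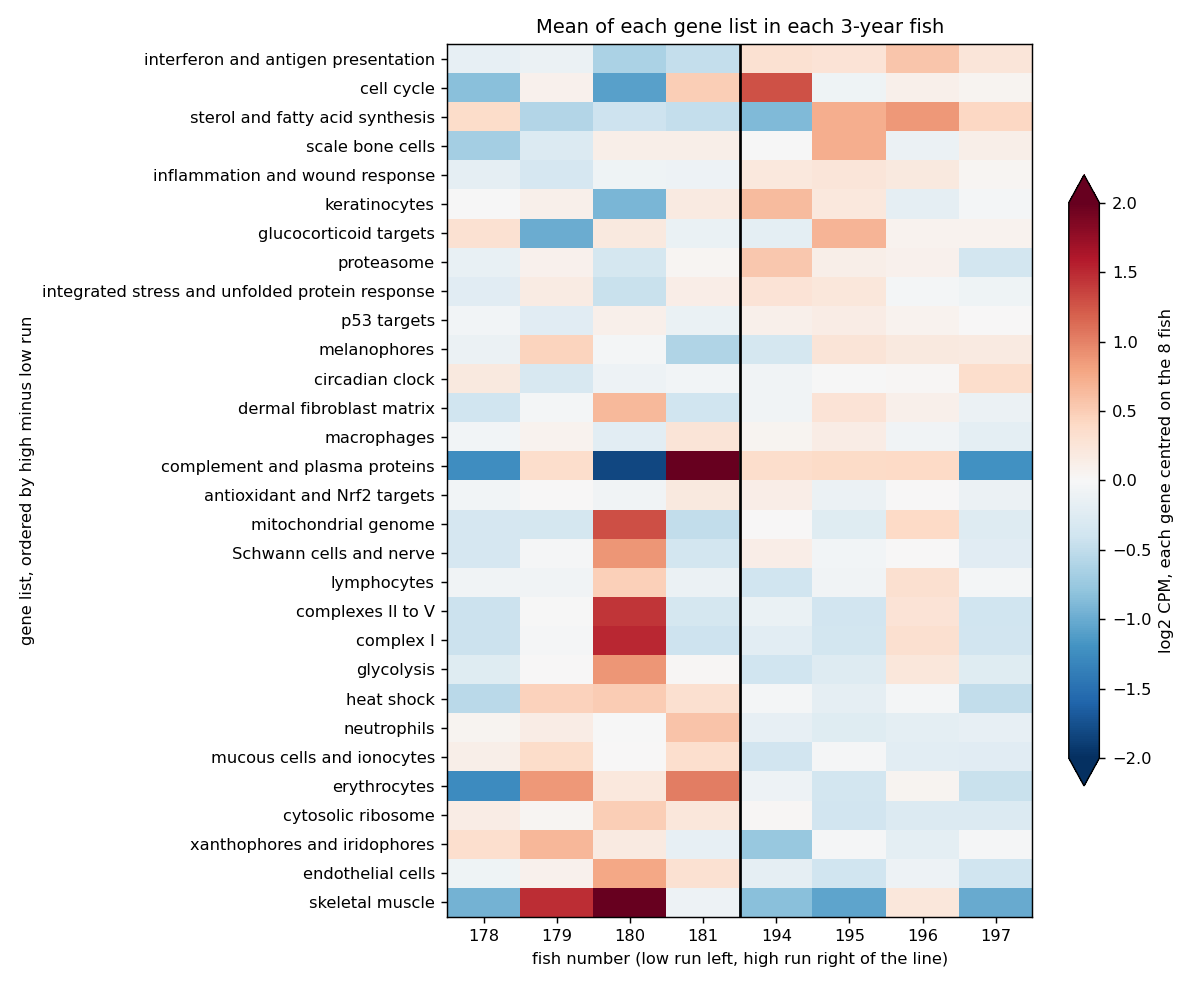
Mean of each gene list in each 3-year fish, as log2 CPM with every gene centred on the 8 fish (red above, blue below the mean; colours end at 2 in either direction). The top row, the interferon list, is below 0 in all 4 low-run fish and above 0 in all 4 high-run fish, while the darkest red cells for muscle, complex I and complexes II to V are those of fish 180.

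The 1-year fish allowed the run difference to be set beside that of other animals. At 1 year edgeR called 709 genes higher (3.72%) and 804 lower (4.22%) in the high run at 37.5 nM, and 552 higher (2.88%) and 1029 lower (5.36%) at 3.75 nM. Across genes, log2 differences at 3 years correlated with those at 1 year with Spearman's rho of 0.0939 at 37.5 nM and 0.138 at 3.75 nM, a description over genes that share libraries. Genes called in both 1-year groups in 1 direction numbered 69 higher and 63 lower. At 3 years 57 of the 69 (82.6%) were also positive and 53 of the 63 (84.1%) also negative, against 46.3% positive among all genes. At an unadjusted p under 0.05, 20 of the 69 (29%) were higher and 14 of the 63 (22.2%) lower, against 5.46% and 6.12% of all genes. At that p, 0 and 0 went the other way. Over all genes called in each 1-year group the shares were lower. Of those called higher at 37.5 and 3.75 nM, 69.5% and 69.1% were positive at 3 years, and 18.4% and 12.8% were higher at that p. Of those called lower, 73.6% and 62.1% were negative, and 9.27% and 4.49% were lower at that p. Of those called higher, 10 and 6 went the other way at that p, and of those called lower 11 and 8.

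Genes that had the same order in all 3 groups of fish came from several functions. vamp1b, of the vesicle fusion machinery, was at 0.882, 0.0873, 0.533 and 0.348 CPM in the 3-year low run and 2.87, 8.90, 16.8 and 13.4 CPM in the high run. Its log2 difference was 4.51 ± 0.74 (SE) (edgeR, 17 fish, adjusted p = 0.00569), beside 1.54 and 2.61 at 1 year and 37.5 and 3.75 nM (edgeR, adjusted p = 0.0343 and 0.0142). The amino acid transporter SLC38A4 was at 115, 21.5, 66.0 and 30.3 CPM and 121, 417, 233 and 143 CPM. The difference of 1.97 ± 0.60 (SE) was close to the 1.98 and 2.35 seen at 1 year, but missed the threshold at 3 years (edgeR, 17 fish, adjusted p = 0.0759). Lower in all 3 groups was CRTAC1, a matrix protein, at 110.1, 62.1, 77.0 and 83.4 CPM and 19.9, 38.4, 34 and 44.8 CPM. Its log2 difference was -1.28 ± 0.28 (SE) (edgeR, 17 fish, adjusted p = 0.0248), with -1.50 and -1.08 at 1 year (edgeR, adjusted p = 0.00796 and 0.00580). soul5 and krt17, given above, were of this kind as well.

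**Figure D5:**
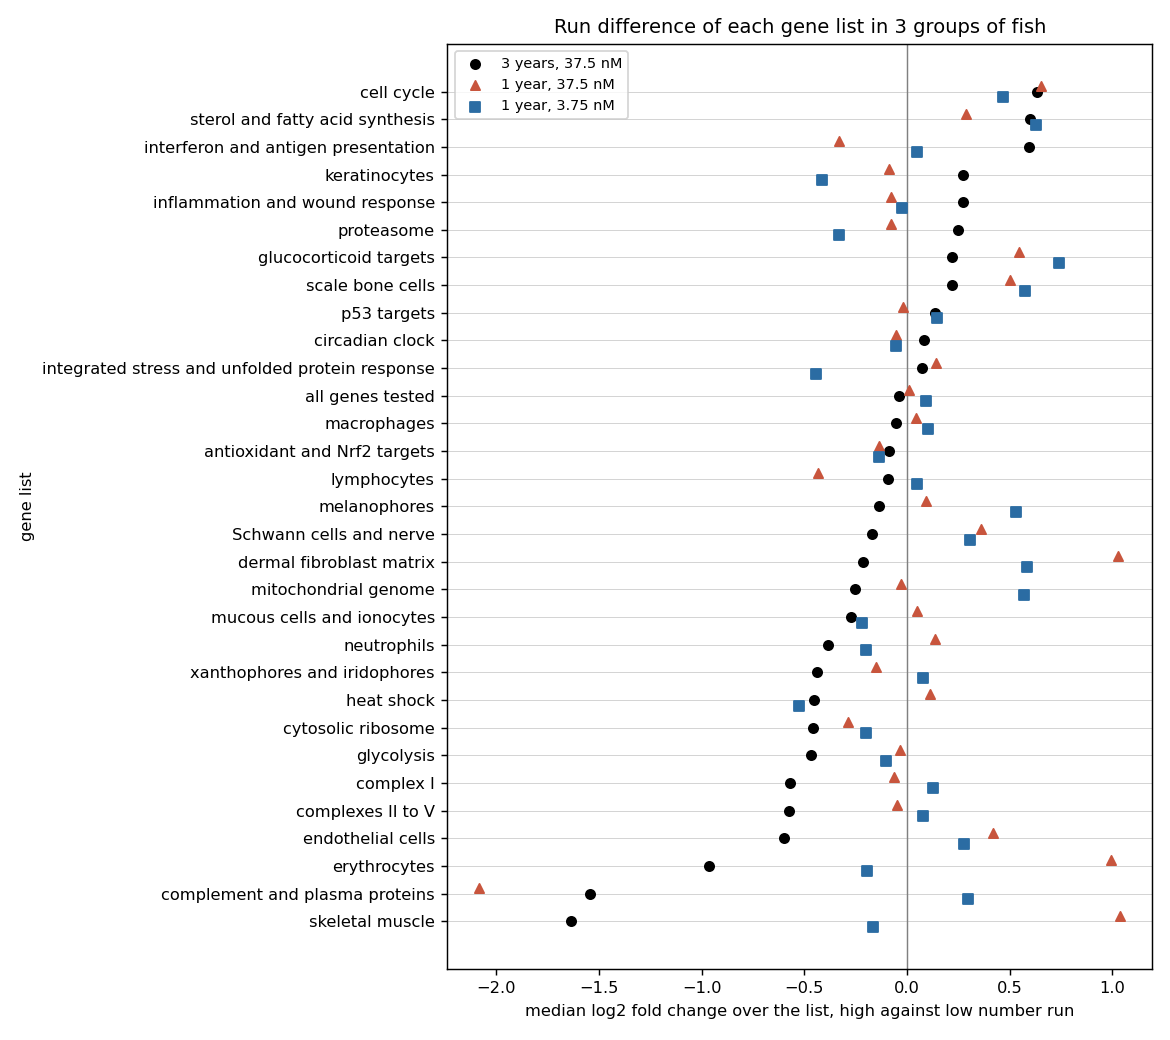
Median log2 difference of each gene list between the high and the low number run, in the 3-year fish (black circles), the 1-year fish at 37.5 nM (red triangles) and the 1-year fish at 3.75 nM (blue squares). The interferon list stands at 0.60 at 3 years and at -0.33 and 0.05 at 1 year, while the cell cycle, sterol and ribosome lists keep their sign in all 3 groups.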

How the data were processed

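Skin RNA of 26 male zebrafish, 1 library per fish, was measured by sequencing after library preparation with the TruSeq RNA kit v2, per the labels. For each of 32105 Ensembl genes the authors deposited whole-number counts without normalization, in a table for 37.5 nM and a further table for 3.75 nM. The submitters' processing notes name CASAVA 1.8.2, STAR 2.4.1d, featureCounts 1.4.6-p4 and the GRCz10 build. Which step each tool served, and whether counting used strand, is not given in the sources used here. RPKM tables that the authors also deposited were not used. Symbols came from a table of Ensembl identifiers, for 26269 identifiers, of which 4301 share a symbol.

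Library sizes were scaled by TMM, and low genes were removed with filterByExpr. The test was the quasi-likelihood test of edgeR 4.0.16 (robust fit, R 4.3.3), with p adjusted by Benjamini-Hochberg over all genes tested and a threshold of 0.05. Log2 CPM used a prior count of 2. The SE was derived from the log2 difference and the F statistic. A p-value reflects how much fish of a run differ from each other, and the labels give no batch. The procedure was tested on simulated data. Alternatives were RLE scaling, no filter, DESeq2 1.42.0, a fit over 17 fish and leaving out each fish.

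The members and the 30 gene lists were chosen with earlier results of these data known. Of 1323 list entries, 980 were matched by symbol, 240 by its stem and 103 by neither. The rule for named genes took called genes without overlap between runs. Since fewer than 5 were called, it took in each direction the 8 genes of smallest unadjusted p that had no overlap, no placeholder symbol and an average log2 CPM of at least 2. It added the 3 most abundant members of each list and 26 symbols chosen ahead, and the text gives a part of these. All other names were chosen after their values were seen.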

Additional observations from a re-analysis of the deposited data

Results flagged for a closer look

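Within a run of 4 fish, a fish was taken to stand apart where its gap to the nearest fish exceeded Dixon's 95% critical share of the range. Of 302 runs examined over the named genes, the list means and the library measures, 28 held such a fish. For independent and normally distributed values, about 1 in 20 groups would hold one. Genes were examined as CPM without a log scale, and all groups come from the same 8 fish, so that rate need not hold here. Fish 178 stood apart as the highest of its run for gcshb at 35.1 CPM against 16.5 CPM in the nearest fish, trim35-31 at 6.69 CPM against 2.26 CPM in the nearest fish and HSD17B7 at 839.5 CPM against 205 CPM in the nearest fish. It also did so for MSMO1 at 838 CPM against 137 CPM in the nearest fish and ssuh2.2 at 17.2 CPM against 8.32 CPM in the nearest fish. Fish 178 stood apart as the lowest of its run for ptgs1 at 12.8 CPM against 18.2 CPM in the nearest fish and LOXL1 at 38.1 CPM against 51.1 CPM in the nearest fish. Fish 180 stood apart as the highest of its run for RPLP0 at 4039 CPM against 3007 CPM in the nearest fish and kdrl at 152 CPM against 52.6 CPM in the nearest fish. Fish 180 stood apart as the lowest of its run for trim25 at 85.5 CPM against 96.5 CPM in the nearest fish. Fish 194 stood apart as the highest of its run for col7a1 at 244 CPM against 113 CPM in the nearest fish, ifit16 at 32.1 CPM against 13.1 CPM in the nearest fish and pkz at 152 CPM against 48.9 CPM in the nearest fish. It also did so for mki67 at 87.7 CPM against 47.9 CPM in the nearest fish, krt5 at 46891 CPM against 28306 CPM in the nearest fish and PCNA at 266 CPM against 109 CPM in the nearest fish. Fish 195 stood apart as the highest of its run for FKBP5 at 1725 CPM against 989 CPM in the nearest fish and foxi3b at 0.703 CPM against 0.418 CPM in the nearest fish. Fish 196 stood apart as the highest of its run for ACTA1 (ENSDARG00000055618) at 125 CPM against 15.7 CPM in the nearest fish. Fish 197 stood apart as the highest of its run for PER1 (ENSDARG00000012499) at 15.4 CPM against 12.4 CPM in the nearest fish. For the cell cycle list, the mean of fish 194 was the highest of the high run, at 1.28 in centred log2 CPM against 0.10. For the complement and plasma proteins list, the mean of fish 197 was the lowest of the high run, at -1.20 in centred log2 CPM against 0.35. For the lymphocytes list, the mean of fish 180 was the highest of the low run, at 0.47 in centred log2 CPM against -0.07. For the melanophores list, the mean of fish 194 was the lowest of the high run, at -0.34 in centred log2 CPM against 0.19. For the mitochondrial genome list, the mean of fish 180 was the highest of the low run, at 1.28 in centred log2 CPM against -0.33. For the skeletal muscle list, the mean of fish 196 was the highest of the high run, at 0.22 in centred log2 CPM against -0.84. Fish 180 held 17.9% of its counts in mitochondrial protein genes and 36.9% in its 50 highest genes, against 8.38% and 28.6% in the nearest low-run fish. High-run fish 194 thus stood apart in proliferation markers, in antiviral genes and in a basal keratin, and low-run fish 178 in enzymes of sterol synthesis.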

How the results depend on the processing

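The count of genes called between the 3-year runs was 0 in the 8 fish, and it stayed there with RLE scaling and without the filter on low counts. It was 156 (105 higher and 51 lower) with 17 fish in the fit and 474 (296 higher and 178 lower) with DESeq2. Leaving out 1 fish in turn gave 0 to 3 calls, 0 to 2 of them higher and 0 to 1 lower. The highest count came without fish 178, when trim35-31 and ssuh2.2 were called higher and pth1b lower. For the difference between ages, the count of 0 became 689 with DESeq2 and 0 to 202 when 1 fish was left out. It was 202 without fish 178, 28 without fish 195 and 2 without fish 180, and the cause was not tested. Of 118 named genes, all kept their direction with RLE scaling, without the filter, with 17 fish and with DESeq2. The 17-fish fit called 55 of them (0.526% of all genes higher and 0.256% lower) and DESeq2 75 (1.13% and 0.677%). Names chosen after their values were seen are among them, so these counts describe the choice of names and support no result. Direction turned only when 1 fish was left out, in 6 genes, of which all but kdrl (log2 difference -0.59, turned without fish 180) were near 0: NR1D1 (-0.12 to 0.36), krt4 (-0.26 to 0.13), hsp70l (-0.22 to 0.26), MMP9 (-0.45 to 0.27), kdrl (-0.78 to 0.070) and CYP1A1 (-0.36 to 0.39), in log2. Counts of list members without fish 180 were an alternative chosen after seeing the data. The interferon list median lay between 0.51 and 0.60 when 1 fish was left out, that of complex I between -0.77 and 0.14, and that of plasma proteins between -1.97 without fish 178 and 0.79 without fish 181. No paired analysis was possible because no fish number occurs in both runs. With 4 fish in each run and few reads of the ionocyte genes, small differences may have been missed.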

Other observations

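Genes called in the 17-fish fit but in none of the groups above included several of 1-carbon and amino acid metabolism, and they were singled out after their values were seen. GLDC, the decarboxylase of the glycine cleavage system, was at 117, 35.8, 75.4 and 58.9 CPM in fish 178 to 181 and 113, 467, 240.0 and 217 CPM in fish 194 to 197. Fish 178 exceeded fish 194, and the log2 difference was 1.85 ± 0.48 (SE) (edgeR, 17 fish, adjusted p = 0.0498). Its carrier protein gene gcshb was at 35.1, 14.6, 14.4 and 16.5 CPM and 56.5, 82.5, 65.7 and 39.8 CPM, without overlap (1.60 ± 0.35 (SE) in log2; edgeR, 17 fish, adjusted p = 0.0291). SARDH, which oxidises sarcosine to glycine, was at 12.5, 9.52, 10.8 and 8.65 CPM and 17.3, 19.8, 20.8 and 19.5 CPM (0.90 ± 0.16 (SE) in log2; edgeR, 17 fish, adjusted p = 0.0399). MAT2A (ENSDARG00000040334), which makes S-adenosylmethionine, was at 168, 147, 112 and 121 CPM and 290.4, 532, 416 and 247 CPM (1.44 ± 0.27 (SE) in log2; edgeR, 17 fish, adjusted p = 0.0352). NAGS, an enzyme of the urea cycle, was at 0.588, 1.14, 1.47 and 0.660 CPM and 2.91, 8.49, 5.85 and 6.51 CPM (2.63 ± 0.43 (SE) in log2; edgeR, 17 fish, adjusted p = 0.0136). In each of these genes but GLDC every high-run fish was above every low-run fish. At 1 year the log2 differences of GLDC were 0.97 at 37.5 nM and 2.2 at 3.75 nM, and those of MAT2A (ENSDARG00000040334) 0.83 and 0.71.

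Further called genes belong to families that in fish include interferon-induced members. The finTRIM gene ftr73, of a tripartite-motif family expanded in fish, was at 2.24, 2.04, 3.02 and 1.36 CPM in the low and 20.1, 10.304, 13.7 and 5.23 CPM in the high run, without overlap (2.51 ± 0.43 (SE) in log2; edgeR, 17 fish, adjusted p = 0.00639). Its relatives ftr07, ftr12 and ftr53 differed by 2.86 ± 0.77 (SE), 2.45 ± 0.47 (SE) and 1.14 ± 0.28 (SE) (edgeR, 17 fish, adjusted p = 0.0388, 0.0291 and 0.0291). The related gene btr29 was at 10.7, 8.24, 5.6 and 7.82 CPM and 33.2, 22.2, 17.3 and 15.8 CPM (1.45 ± 0.29 (SE) in log2; edgeR, 17 fish, adjusted p = 0.0294). gig2e, of a fish family named for its induction by virus, was at 10.9, 4.45, 6.44 and 2.54 CPM and 33.5, 26.6, 49.8 and 23.5 CPM (2.46 ± 0.45 (SE) in log2; edgeR, 17 fish, adjusted p = 0.0118). xaf1 and rnf213b, interferon-induced in mammals, differed by 1.33 ± 0.30 (SE) and 1.64 ± 0.32 (SE) (edgeR, 17 fish, adjusted p = 0.0291 and 0.0169). Of these genes only ftr07 overlapped, through fish 195 and 179.

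Single genes of other functions were called as well. The cell cycle inhibitor gene cdkn1a was at 1.29, 1.31, 1.73 and 1.74 CPM and 4.94, 4.57, 3.68 and 2.59 CPM (1.38 ± 0.28 (SE) in log2; edgeR, 17 fish, adjusted p = 0.0352), and cry5, of the cryptochrome and photolyase family, at 19.0, 7.95, 14.6 and 11.5 CPM and 22.9, 28.3, 39.1 and 29.9 CPM (1.18 ± 0.28 (SE) in log2; edgeR, 17 fish, adjusted p = 0.0294). The translation factor gene EEF1G was lower, at 1908, 1816, 2650.0 and 2019.9 CPM and 1412, 1091, 1355 and 1295 CPM (-0.70 ± 0.19 (SE) in log2; edgeR, 17 fish, adjusted p = 0.0328), and RPSA2, of the small ribosomal subunit, fell by 0.59 ± 0.17 (SE) on the log2 scale (edgeR, 17 fish, adjusted p = 0.0461). ACTA1 (ENSDARG00000036371), a muscle actin, was at 2.83, 82.9, 13.1 and 21.2 CPM and 1.08, 1.70, 1.98 and 2.31 CPM. It passed with a log2 difference of -4.08 ± 0.92 (SE) (edgeR, 17 fish, adjusted p = 0.0402), although fish 178 lay close to the high run. A further gene of that symbol, ENSDARG00000055618, overlapped between runs and differed by -2.69 ± 1.51 (SE).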
